A study of Homo sapiens with 4 samples.

Results

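Described here are 10 genes of AP-1 and of early transcription factors, most of them known to be induced by growth factors such as EGF, in cells that had all been exposed to EGF: the FOS family (FOS, FOSB, FOSL1, FOSL2), the JUN family (JUN, JUNB, JUND), EGR1, and the ETS factors ETV4 and ETV5. They were taken by gene name, with no threshold on a measured value, and each was represented by 1 probe, so that 10 probes of the 34126 on the array, and 10 of the 19482 genes that could be named, make up the set. All 10 probes were measured well above background on all 4 arrays. With Pre-miR-376c, none of the 10 differed 2-fold from either negative control, beside 3.05% of all probes against the Pre-miR and 7.29% against the siRNA negative control. With siGRB2, JUNB and JUND were 2.82-fold and 2.16-fold higher than with the siRNA negative control, yet 1.21-fold and 1.10-fold higher than with the Pre-miR negative control. Of all probes, 9.84% were 2-fold apart between siGRB2 and the siRNA negative control. No factor lay at least 1.5-fold to the same side of both negative controls, beside 3.43% of all probes with Pre-miR-376c and 3.42% with siGRB2. With 10 factors, such counts are too coarse to be set apart from these shares.

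The cells were HuCCT1, an established line of human intrahepatic cholangiocarcinoma, a cancer of the bile ducts within the liver. They were transfected at 30 nM with the microRNA precursor Pre-miR-376c, with the Pre-miR negative control, with siGRB2, a siRNA against the adaptor gene GRB2, or with the siRNA negative control. After 24 h they received EGF at 5 ng/ml for 24 h in medium with 0.1% serum, and 200 ng of RNA was labelled with 1 dye for 1 array each, all on 1 slide. No culture without EGF was analysed here, so the values give levels after 24 h of EGF in every group and no induction by EGF, and with 1 array per transfection no test between transfections was possible.

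AP-1 is a dimer of a JUN protein with a FOS protein, with another JUN protein or with a related ATF protein, and binds short DNA sites in genes of proliferation, invasion and inflammation. EGF binds its receptor, GRB2 couples the receptor to SOS and RAS, and the ERK kinases at the end of this cascade activate factors that switch on FOS, EGR1 and other immediate-early genes within minutes, before any new protein is made. FOS and EGR1 transcripts usually fall again within hours, whereas FOSL1 and the ETS factors ETV4 and ETV5 follow later and stay high while ERK signalling lasts. JUNB and JUND can restrain as well as replace JUN in the dimer.

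The RNA that Pre-miR-376c supplies is hsa-miR-376c-3p, shown because it is the agent of 1 of the 2 treatments. The 21 bases of this mature RNA lie on the plus strand at chr14:101039732-101039752 (GRCh38.p14). Capitals mark the seed, bases 2 to 8, through which a microRNA mainly pairs with its targets (sequence from RefSeq).
hsa-miR-376c-3p: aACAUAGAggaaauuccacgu

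Levels are log2 of the scanner's processed intensity minus the 75th percentile of the same array, so 0 is a fairly bright probe and 1 unit is 2-fold. Probes bind their targets with unequal strength, so a gene's level is compared between arrays only. The error printed with a difference is the scanner's own estimate for the spots, 0.20 to 0.28 on the log2 scale for these probes; it leaves out any variation between cultures. The 75th percentile itself was an intensity of 1727 to 2698, lowest on the siRNA negative control array and highest on the Pre-miR negative control array. The siRNA negative control array stood apart: it held the lowest of the 4 levels for 46% of the 21239 probes measured on all arrays, and 9.17% of probes were at least 2-fold apart between the 2 negative controls. The targeted gene GRB2 was lowest with siGRB2, at -0.65, against -0.10 and 0.62 with the siRNA and Pre-miR negative controls and 0.07 with Pre-miR-376c. With siGRB2 it was 68.4% of its level in the siRNA and 41.5% of that in the Pre-miR negative control. Of markers of simple and biliary epithelium, all 7 genes (KRT7, KRT8, KRT18, KRT19, EPCAM, CDH1 and SOX9) were measured on all arrays, whereas the hepatocyte genes ALB, TTR and APOA2 and the fibroblast genes COL3A1 and DCN were not well above background on any. COL1A1, CD14, CD68, VWF, CDH5 and some probes of PTPRC were measured on all 4 arrays. COL1A1 was the exception among these markers in passing 1.5-fold from both controls (-1.01 and -0.62 with Pre-miR-376c against the Pre-miR and siRNA negative controls). The second difference was under 1.5-fold, at -0.57 and -0.52, with scaling on the probes measured on all arrays and with normexp background correction, and the part of COL1A1 in the values of the factors was not tested.

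FOS, the founding member of the family, was at -3.84 with the Pre-miR negative control, -3.56 with the siRNA negative control, -3.49 with siGRB2 and -3.39 with Pre-miR-376c. Its lowest array was the Pre-miR negative control, and the other 3 lay within the scanner error of their neighbours in the order. The differences with Pre-miR-376c were 0.45 ± 0.21 (scanner error) from the Pre-miR and 0.17 ± 0.22 from the siRNA negative control. With siGRB2 they were 0.35 ± 0.21 and 0.07 ± 0.22. The difference of 0.07 turned negative when arrays were scaled by their median or by quantiles or taken from the deposited table, and that of 0.17 turned negative with quantiles.

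FOSB, a close relative of FOS that also dimerises with JUN proteins, had levels of -4.72 and -4.47 with the Pre-miR and siRNA negative controls, -4.64 with siGRB2 and -5.00 with Pre-miR-376c. Its intensities of 64.4 to 103 were close to the dimmest signal called well above background, 21.2 to 24.4 depending on the array, and its scanner errors were the widest of the 10. Pre-miR-376c gave the lowest of the 4 levels, at differences of -0.29 ± 0.27 from the Pre-miR and -0.54 ± 0.28 from the siRNA negative control. The first of these turned to 0.03 and the second to -0.26 under normexp background correction. With siGRB2 the differences, 0.08 from the Pre-miR and -0.17 from the siRNA negative control, were within the scanner error.

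FOSL1 encodes FRA1, the FOS protein most tied to sustained ERK signalling and invasion. Its levels were 1.41 with the Pre-miR negative control, 1.09 with the siRNA negative control, 1.61 with siGRB2 and 1.45 with Pre-miR-376c. The siRNA negative control was the low array, and the other 3 spanned 0.20 log2 units, no neighbours in their order being further apart than the scanner error. FOSL1 was thus 0.51 ± 0.20 higher with siGRB2 than with its siRNA negative control and 0.20 ± 0.20 higher than with the Pre-miR negative control; with Pre-miR-376c it was 0.04 ± 0.20 and 0.35 ± 0.20 from the Pre-miR and siRNA negative controls.

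FOSL2, which encodes FRA2, lay furthest from both controls with Pre-miR-376c, by the smaller of its 2 differences, among the factors on the same side of both. It was at -1.26 and -1.27 with the Pre-miR and siRNA negative controls, -1.38 with siGRB2 and -1.75 with Pre-miR-376c. Pre-miR-376c was the low array, with differences of -0.49 ± 0.20 and -0.47 ± 0.20, or 71.2% and 72.0% of the levels in the Pre-miR and siRNA negative controls. This is short of 1.5-fold and stayed negative under every scaling tried. With siGRB2 the differences of -0.12 and -0.10 were within the scanner error.

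JUN, the main partner of the FOS proteins, varied least over the arrays, by 0.30 log2 units: 0.60 with the Pre-miR negative control, 0.74 with the siRNA negative control, 0.51 with siGRB2 and 0.44 with Pre-miR-376c. With the arrays ordered from the highest to the lowest level, no neighbours differed by more than the scanner error. Pre-miR-376c gave -0.15 ± 0.20 against the Pre-miR and -0.30 ± 0.20 against the siRNA negative control, and siGRB2 gave -0.09 ± 0.20 and -0.23 ± 0.20.

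JUNB, a partner of FOS proteins that is a weaker activator than JUN, varied most, over 1.497 log2 units. Its levels were -1.82 with the Pre-miR negative control, -3.05 with the siRNA negative control, -1.55 with siGRB2 and -2.41 with Pre-miR-376c, each further from the next than the scanner error. The siRNA negative control array was low and the siGRB2 array high. JUNB was 1.497 ± 0.21 higher with siGRB2 than with the siRNA negative control and 0.27 ± 0.20 higher than with the Pre-miR negative control. With Pre-miR-376c the controls gave opposite directions, -0.59 ± 0.20 against the Pre-miR and 0.64 ± 0.21 against the siRNA negative control. Between the negative controls themselves JUNB differed by -1.23 ± 0.21, its level with the siRNA control being 42.7% of that with the Pre-miR control.

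JUND, which is expressed in most resting cells and responds little to growth factors, followed the same order. It was at -2.44 and -3.42 with the Pre-miR and siRNA negative controls, -2.31 with siGRB2 and -3.02 with Pre-miR-376c. The siGRB2 and Pre-miR negative control arrays lay within the scanner error of each other, and the other gaps were larger. The differences with siGRB2 were 1.11 ± 0.21 from the siRNA and 0.13 ± 0.21 from the Pre-miR negative control. Pre-miR-376c gave 0.40 ± 0.21 and -0.58 ± 0.21, again of opposite sign. The negative controls differed by -0.98 ± 0.21.

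EGR1, a zinc finger factor and a standard marker of early ERK output, had levels of -1.38 with the Pre-miR negative control, -1.04 with the siRNA negative control, -1.53 with siGRB2 and -1.05 with Pre-miR-376c. The siRNA negative control and Pre-miR-376c arrays were alike and high, and siGRB2 was the lowest. With siGRB2 it differed by -0.49 ± 0.20 against the siRNA and by -0.15 ± 0.20 against the Pre-miR negative control, the second within the scanner error. With Pre-miR-376c the differences were 0.32 ± 0.20 from the Pre-miR and -0.02 ± 0.20 from the siRNA negative control.

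ETV4 and ETV5 are ETS factors of the PEA3 subfamily, whose transcripts are widely used as readouts of receptor tyrosine kinase and ERK signalling. ETV4 was at -1.69 and -2.35 with the Pre-miR and siRNA negative controls, -1.65 with siGRB2 and -2.18 with Pre-miR-376c. It had the array order of JUNB and JUND, with the siGRB2 and Pre-miR negative control arrays high and close to each other. With siGRB2 it differed by 0.70 ± 0.21 from the siRNA and 0.04 ± 0.21 from the Pre-miR negative control. Pre-miR-376c gave differences of 0.17 ± 0.21 and -0.49 ± 0.21 in the same order.

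ETV5 stood at -3.21 and -3.29 with the Pre-miR and siRNA negative controls, -2.64 with siGRB2 and -3.31 with Pre-miR-376c. The siGRB2 array was high and the other 3 lay within the scanner error of one another in their order. By the smaller of its 2 differences, ETV5 was the factor furthest from both controls with siGRB2, 0.57 ± 0.21 from the Pre-miR and 0.65 ± 0.21 from the siRNA negative control, or 1.49-fold and 1.57-fold, so that it missed 1.5-fold from both by the first of these. Pre-miR-376c gave -0.10 ± 0.21 and -0.02 ± 0.21.

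**Figure D1:**
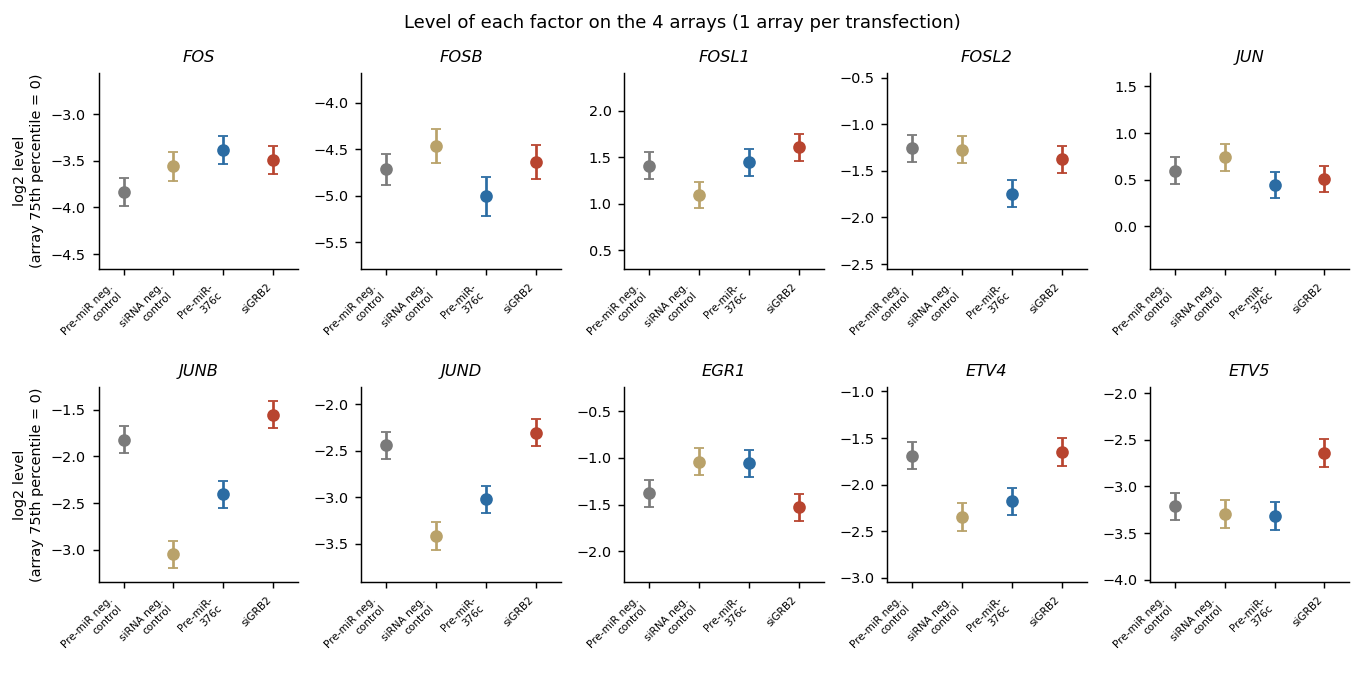
Each panel plots 1 factor's log2 level (vertical axis, 0 = the array's 75th percentile) on the 4 arrays, with the scanner error as a bar; every panel spans the same number of log2 units around its own middle. JUNB runs from -3.05 on the siRNA negative control array to -1.55 on the siGRB2 array, whereas JUN stays between 0.44 and 0.74.

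Against the 2-fold limit, 0 of the 10 factors differed between Pre-miR-376c and the Pre-miR negative control, beside 3.05% of all 24384 probes compared, and 0 of 10 between Pre-miR-376c and the siRNA negative control, beside 7.29% of probes. Between siGRB2 and the siRNA negative control, 2 of 10 (JUNB and JUND) passed, beside 9.84% of probes, both of them higher, beside 6.77% of probes that were 2-fold higher. Between siGRB2 and the Pre-miR negative control 0 of 10 passed, beside 2.94%. Between the siRNA and the Pre-miR negative control 1 of 10 passed (JUNB, lower), beside 9.17% of probes in either direction and 6.11% that were 2-fold lower. At least 1.5-fold to the same side of both negative controls, the factors numbered 0 of 10 with Pre-miR-376c, beside 3.43% of probes, and 0 of 10 with siGRB2, beside 3.42%. With 10 members these counts are too coarse to be set apart from the background shares. At a limit of 1.5-fold against 1 control, 1 of 10 (JUNB) passed with Pre-miR-376c against the Pre-miR negative control, beside 11.2% of probes, and 1 of 10 (JUNB, in the opposite direction) against the siRNA negative control, beside 27.8%. With siGRB2, 4 of 10 (JUNB, JUND, ETV4 and ETV5) passed against the siRNA negative control, beside 33.9% of probes. Against the Pre-miR negative control 0 of 10 passed, beside 8.6%. These counts are likewise too coarse to be set apart from the background shares.

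The share of probes past 2-fold that were higher with siGRB2 than with the siRNA negative control depended on the scaling: 68.9% of those probes with the 75th percentile and 26.7% with the array median. The median over all probes measured in this comparison was 0.15, and array medians shifted it by -0.28. Relative to the median of all probes, JUNB was 1.34 and JUND 0.96 higher with siGRB2, so that JUND was then under 2-fold. Scaled by the array median or by quantiles, JUNB remained past the limit at 1.22 and 1.25 and JUND did not, at 0.83 and 0.83. Of the 40 differences of the 10 factors from the controls, 7 changed sign under at least 1 of 5 other scalings, all of them within the scanner error. Under normexp background correction, FOSB and ETV5 with Pre-miR-376c turned against the Pre-miR negative control. With siGRB2, FOSL1, FOSL2 and EGR1 turned against both controls and FOSB against the siRNA negative control. FOSB with Pre-miR-376c had been beyond the scanner error, as had FOSL1 (0.51) and EGR1 (-0.49) with siGRB2 against the siRNA negative control. FOSL1, FOSL2 and EGR1 kept their signs when the spots of high local background described below were left out.

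**Figure D2:**
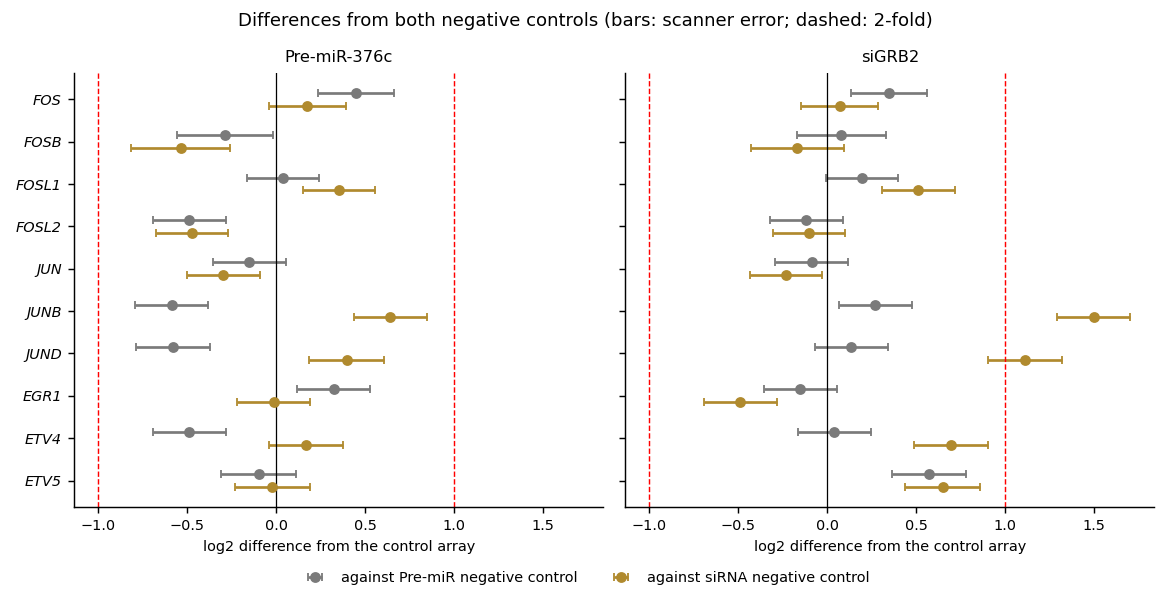
Log2 differences (horizontal axis) of the 10 factors with Pre-miR-376c (left) and siGRB2 (right) from the Pre-miR negative control (grey) and the siRNA negative control (ochre), with the scanner error as bars and the 2-fold limit dashed. The JUNB and JUND points past 2-fold with siGRB2, at 1.497 and 1.11, are both against the siRNA negative control, and the same genes lie at 0.27 and 0.13 against the Pre-miR negative control.

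The median over the 10 factors was -0.22 for Pre-miR-376c against the Pre-miR negative control, where the median of all probes was -0.02, with 7 factors lower and 3 higher. Against the siRNA negative control it was 0.08 beside 0.09 for all probes, with 5 factors on each side. For siGRB2 the medians were 0.29 beside 0.15 against the siRNA negative control and 0.11 beside 0.04 against the Pre-miR negative control, with 6 and 7 factors higher. The comparisons share control arrays, so that the values of a factor in them are not separate measurements. The range of a factor over the 4 arrays had a median of 0.52, beside 0.56 for all probes measured on all arrays. Without the siRNA negative control array the median range was 0.48 beside 0.31, with JUNB at 0.86, JUND at 0.71, ETV5 at 0.67 and ETV4 at 0.53.

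**Figure D3:**
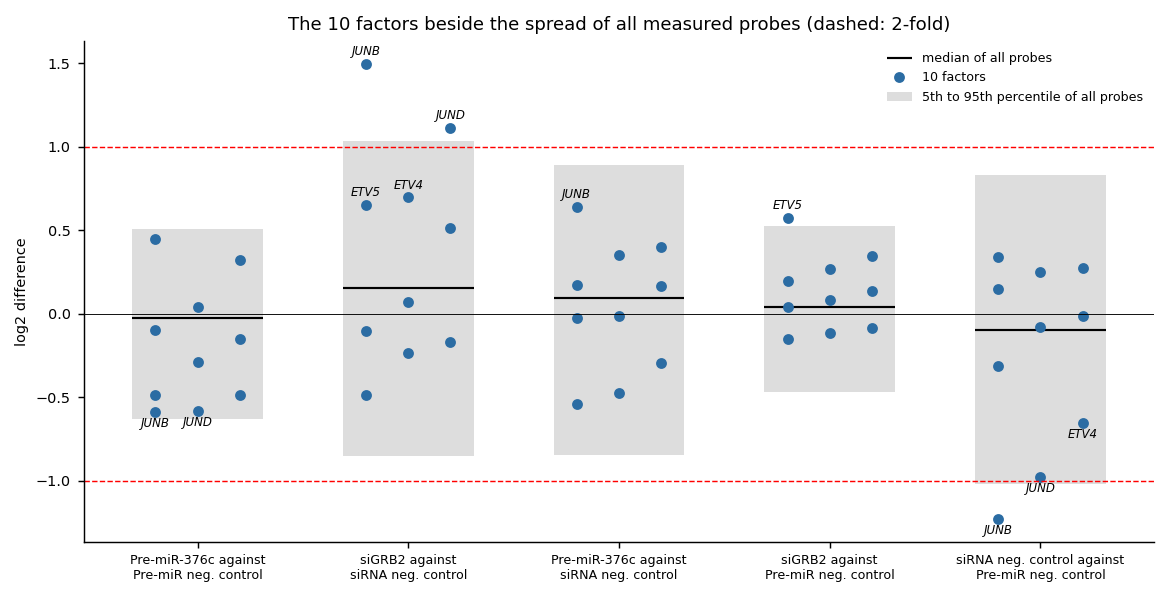
For each comparison, the grey bar runs from the 5th to the 95th percentile of the log2 differences of all measured probes, the black line is their median, and the blue points are the 10 factors, named where they lie beyond 0.57 in size. In the second comparison JUNB and JUND lie above the bar, whose top is at 1.03, and in the fourth ETV5, at 0.57, lies just above a top of 0.53.

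The siRNA negative control array held the lowest level of 4 of the 10 factors (JUNB, JUND, ETV4 and FOSL1) and the highest of 3 (FOSB, JUN and EGR1), beside 46% and 29.4% of all probes. The order siGRB2, Pre-miR negative control, Pre-miR-376c, siRNA negative control, from high to low, was shared by JUNB, JUND and ETV4, and was found for 10.8% of all probes. For ETV4, the gap of siGRB2 over the Pre-miR negative control (0.04) was within the scanner error. So was that of Pre-miR-376c over the siRNA negative control (0.17), and each turned slightly negative under another scaling. As a measure of likeness to JUNB, the factor with the widest range, each profile was centred on its mean and its Euclidean distance to JUNB over the 4 arrays was taken. JUND lay at 0.28 and ETV4 at 0.58, whereas EGR1, the furthest of the factors, lay at 1.55. Among 2375 named probes outside the set with a range of at least 1 log2 unit, the nearest were CNPY3, at 0.10, and ODAPH and IST1, at 0.12 and 0.14.

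RefSeq promoter windows, from 250 bases before to 50 bases after the annotated start, were at hand for 7 of the 10 factors (FOS, FOSB, FOSL2, JUN, JUNB, JUND and EGR1) and for 27305 genes in all. They were searched on both strands for 6 short motifs chosen after the windows had been read, and a match describes letters, not binding. TGACG, the core of the site for CREB and ATF proteins, was in all 7 windows and in 25% of all windows. Its full palindrome TGACGTCA, which contains TGACG on both strands, was in that of JUND alone among them, at 200 bases before the start, and in 1.98% of all. The CArG box, the site of serum response factor, occurred at 105 and 83 bases before the start of EGR1 and in 1.29% of all windows. A site more than 250 bases before the start, in FOS or any other factor, could not be seen, so a window without the motif does not show that the gene lacks it. TGACATCA, a variant AP-1 site, was in that of JUN, 67 bases before the start, and in 2.71% of all. The AP-1 site TGANTCA was in that of FOSL2, after the start, and in 7.76% of all, and the EGR site GCGNGGGCG in that of EGR1 and in 9.28%. Stretches before the start are shown for JUNB and JUND, the pair past 2-fold, and for JUN, FOS and EGR1, which were not, so that the shared core and the motifs of JUN and EGR1 can be seen; capitals mark TGACG on either strand (read as CGTCA on the minus strand), TGACATCA and the CArG boxes. The sequences are those of RefSeq in GRCh38.p14, at chr19:12791331-12791391 (plus strand) for JUNB, chr19:18281692-18281837 (minus strand) for JUND, chr1:58784092-58784182 (minus strand) for JUN, chr14:75278748-75278808 (plus strand) for FOS and chr5:138465339-138465429 (plus strand) for EGR1.
JUNB: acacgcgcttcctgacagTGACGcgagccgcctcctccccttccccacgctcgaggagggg
JUND: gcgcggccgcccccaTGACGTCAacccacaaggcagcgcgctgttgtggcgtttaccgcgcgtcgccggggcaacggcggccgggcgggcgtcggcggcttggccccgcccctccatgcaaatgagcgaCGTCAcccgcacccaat
JUN: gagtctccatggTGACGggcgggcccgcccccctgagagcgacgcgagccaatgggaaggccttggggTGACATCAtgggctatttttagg
FOS: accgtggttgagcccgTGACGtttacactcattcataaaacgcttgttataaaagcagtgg
EGR1: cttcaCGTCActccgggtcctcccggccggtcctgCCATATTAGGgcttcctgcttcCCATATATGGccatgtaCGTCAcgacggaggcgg

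**Figure D4:**
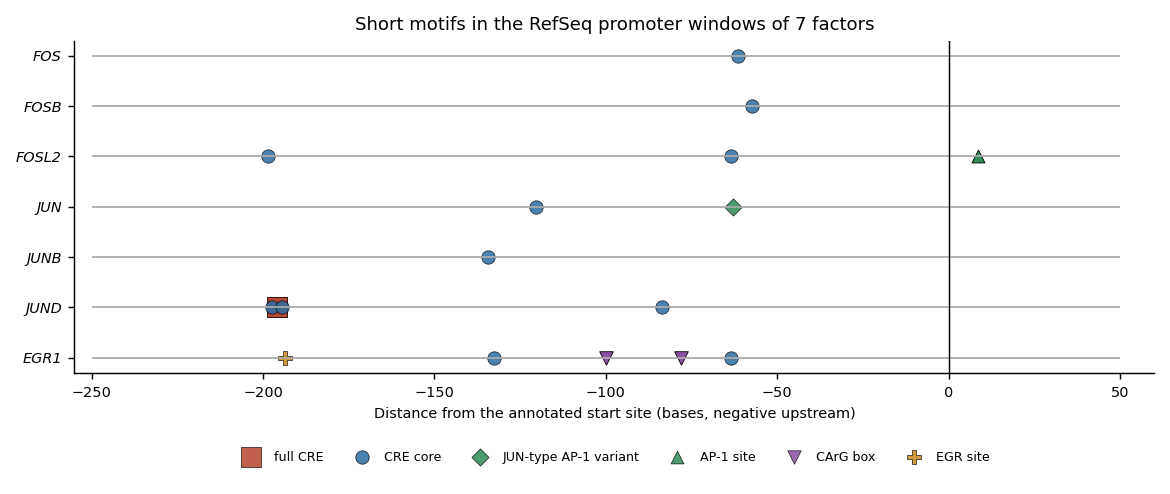
Matches to 6 short motifs (symbols) along the promoter windows of 7 factors, by distance in bases from the annotated start site; the CRE core is drawn on either strand and lies inside the full CRE of JUND. The core appears in each of the 7 windows, and the CArG boxes in that of EGR1.

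The other AP-1, ATF and MAF proteins can form dimers with FOS or JUN proteins. They had 17 of 19 probes, for 12 of 13 genes, measured on all 4 arrays. None was 2-fold apart with Pre-miR-376c or siGRB2 against the Pre-miR negative control, and 1 was against the siRNA negative control, a probe of ATF3, the stress-induced partner of JUN, which was 1.67 higher with Pre-miR-376c and 1.72 higher with siGRB2. The other 3 probes of ATF3 gave 0.13 to 0.90 and 0.18 to 0.99 in the same comparisons, so that its probes did not show the same size of difference; ATF3 is named although it was chosen after its values were seen. The siRNA negative control array was the lowest for 11 of these 17 probes, beside 46% of all probes. The list's median differences were -0.07 and 0.19 for Pre-miR-376c against the Pre-miR and siRNA negative controls and 0.01 and 0.29 for siGRB2, beside the medians of all probes given above (-0.02, 0.09, 0.04 and 0.15). At 1.5-fold from both controls, none of the list passed with either treatment, beside 3.43% of all probes with Pre-miR-376c and 3.42% with siGRB2. For this and the next lists, the shares of all probes past 2-fold with Pre-miR-376c were 3.05% and 7.29% against the Pre-miR and siRNA negative controls. With siGRB2 they were 2.94% and 9.84%.

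The other immediate-early genes and serum response factors had 30 of 37 probes measured on all arrays, while EGR2, EGR3 and NR4A1 were not well above background on any. The list's medians were -0.13 and 0.04 for Pre-miR-376c against the Pre-miR and siRNA negative controls, and 0.01 and 0.02 for siGRB2. At 2-fold, ID1 (1.01) passed with Pre-miR-376c against the Pre-miR negative control and IER5 (-1.06) against the siRNA negative control. With siGRB2, ID3 (1.46), 1 of 2 probes of CSRNP1 (1.18) and KLF2 (-1.04) passed against the siRNA negative control, and none against the Pre-miR negative control. Those other than ID3 were chosen after their values were seen. ID3, an inhibitor of basic helix-loop-helix factors that BMP and growth factor signals induce, was the sole member of the list at least 1.5-fold from both controls, with siGRB2: -2.94 and -3.50 with the Pre-miR and siRNA negative controls, -2.04 with siGRB2 and -2.56 with Pre-miR-376c. It was highest on the siGRB2 array, by 0.90 ± 0.21 from the Pre-miR and 1.46 ± 0.21 from the siRNA negative control.

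The other ETS factors had 17 of 18 probes measured on all arrays, and 11 of the 17 were highest on the siRNA negative control array, beside 29.4% of all probes. Their median differences were -0.03 and -0.25 for Pre-miR-376c against the Pre-miR and siRNA negative controls, and -0.22 and -0.37 for siGRB2. EHF, an epithelial ETS factor, was the sole member 1.5-fold from both controls, and lower with siGRB2. Its levels were 2.14 and 2.80 with the Pre-miR and siRNA negative controls, 1.28 with siGRB2 and 1.67 with Pre-miR-376c, and the differences with siGRB2 were -0.86 ± 0.20 from the Pre-miR and -1.52 ± 0.20 from the siRNA negative control. Besides EHF, which also passed 2-fold with Pre-miR-376c against the siRNA negative control (-1.13), the list had 1 of 4 probes of ETV1 (-1.17, chosen after its values were seen) past 2-fold with siGRB2 against the siRNA negative control, and none with either treatment against the Pre-miR negative control.

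Of 20 genes known as targets of AP-1, 15 were measured on all arrays, and those past 2-fold went both ways. The list's medians were -0.26 for Pre-miR-376c and -0.22 for siGRB2 against the Pre-miR negative control, and 0.0015 and -0.07 against the siRNA negative control. Against the siRNA negative control, 2 of 20 probes were higher and 4 lower with siGRB2, beside 9.84% of all probes past 2-fold in either direction. With Pre-miR-376c, 1 of 20 was higher and 5 lower, beside 7.29%. In both, 1 of the lower probes was that of IVL, a bound, as IVL was well above background on the siRNA negative control array alone. Against the Pre-miR negative control, 1 of 20 was lower with siGRB2, beside 2.94%, and 2 of 20 with Pre-miR-376c, beside 3.05%. MMP9, a gelatinase, and IL1B, the inflammatory cytokine, were lower than both controls by at least 1.5-fold with either treatment, and MMP13, a collagenase, with Pre-miR-376c, where it was not well above background and its bounds were -0.89 and -0.69 from the Pre-miR and siRNA negative controls. Under normexp background correction MMP13 gave -0.35 from the siRNA negative control and no difference from the Pre-miR negative control, and did not pass. The count was 3 of 21 probes with Pre-miR-376c, beside 3.43% of all probes, and 2 of 21 with siGRB2, beside 3.42%. MMP9 differed by -1.17 ± 0.21 and -1.44 ± 0.21 with Pre-miR-376c against the Pre-miR and siRNA negative controls, and by -1.04 ± 0.21 and -1.31 ± 0.21 with siGRB2. IL1B, in the same order of controls, gave -0.92 and -1.17 with siGRB2 and -1.41 and -1.66 with Pre-miR-376c, each ± 0.20. MMP9 and IL1B were among the genes the study itself singled out from these arrays, so the count is not independent evidence of a direction. Under normexp background correction that kept 7 spots of high local background on the siGRB2 array, MMP9 with siGRB2 instead gave 1.78 and 1.47 against the Pre-miR and siRNA negative controls; without those spots it gave -0.75 and -1.05. IL1B gave 0.09 and -0.17 with the spots and -0.85 and -1.11 without them.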

How the data were processed

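The authors extracted intensity values with Agilent Feature Extraction (10.7, per the submitters' processing notes) and also deposited a table of log2 values shifted to the 75th percentile. Each column of that table matched the scanner values minus a constant (within 0.01). From the deposited processed intensity, spots with an outlier flag (289 to 329 per array) were left out, log2 values were taken, the 75th percentile over non-control spots was subtracted, and spots of a probe were averaged. A probe counted as measured where most of its spots were well above background; otherwise a difference was a bound set at the dimmest such spot. Names came from RefSeq accessions (25421 of 34126 probes). Python (3.11.15), numpy (2.4.6), pandas (2.3.3), R (4.3.3) and limma (3.58.1) were used. The calling step was run on simulated levels with added changes well past the 2-fold limit and little noise. That run checks the code and says nothing about how reliable the calls on these arrays are.

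The 10 factors and the gene lists were chosen with earlier results of these data known. Genes were named by rule: all 10 factors, GRB2, list members at least 1.5-fold to the same side of both negative controls with 1 treatment (at most 4 per list and treatment), and the 3 probes nearest to the factor of widest range. Each treatment was compared with both negative controls. With 1 array each, no p-value was computed, and precision is limited by the number of arrays. The alternatives were quantile, median and detected-probe scaling, normexp background correction (offset 50), outlier spots kept, the deposited table, probes measured on all arrays, 1 value per gene, and a 1.5-fold limit.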

Additional observations from a re-analysis of the deposited data

How the results depend on the processing

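No paired analysis was possible because each transfection has 1 array, and for the same reason no array could be left out. With siGRB2 against the siRNA negative control, the 2 factors past 2-fold became 1 with quantile normalization (8.45% of all probes), 1 with the array median (11% of probes) and 4 with a 1.5-fold limit (33.9% of probes), and the median over the 10 factors moved from 0.29 to 0.071 (quantile) and 0.0083 (array median). For Pre-miR-376c the 1.5-fold limit gave 1 factor against each control in place of 0, beside 11.2% of probes for the Pre-miR and 27.8% for the siRNA negative control. Normexp background correction gave 6 factors past 2-fold with siGRB2 against either control, beside 64% of probes for the siRNA and 54.5% for the Pre-miR negative control, medians of 2.16 against the siRNA and 1.42 against the Pre-miR negative control, and 7 factors 1.5-fold from both, beside 67% of probes. It turned FOSL1 to -0.28 and EGR1 to 0.47 with siGRB2 against the siRNA negative control and put GRB2 itself 0.12 above the siRNA negative control. On the siGRB2 array 7 spots had a local background over 10 times the array's median, and on the other arrays 0. Normexp fitted without these spots, chosen after seeing the data, gave 1 factor (JUNB) past 2-fold against the siRNA negative control (4% of probes), 0 against the Pre-miR negative control and 0 from both. The remaining counts and medians stayed within 1.5 times, or within the scanner error, of the values reported. The error printed combines those of the spots on both arrays compared and covers no variation between cultures. No difference here can therefore be separated from such variation.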
